A study of Mus musculus with 6 samples.

Results

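The focal adhesion actin linkers and filamins are 9 genes, Vcl, Zyx, Pxn, Tln1, Tln2, Actn1, Actn4, Flna and Flnc, whose products tie integrins to actin filaments or bundle those filaments. They were chosen by name, with earlier results of these data known. Each was read by its single-symbol probe set, of which each gene had 1, so 9 of the 19938 genes on the arrays are described here. RNA came from HM1 mouse embryonic stem (ES) cells, an established cell line. One group (3 arrays, Prmt6 overexpression) received mouse Prmt6, a nuclear arginine methyltransferase, cloned in the plasmid pCAGIP.puro, and the other (3 arrays, control) received that vector empty. Both groups were transfected by lipofection, selected with 1 ug/ml of puromycin over 3 days, and grown in 15% serum with 1000 U/ml of the cytokine LIF. The cells were selected pools. Nothing states that the replicates were separate cultures, so p-values cover only the variation among these arrays, which could be technical.

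In a focal adhesion, the cell grips the matrix outside through integrins, and talin binds the integrin tail inside and connects it to actin. Vinculin joins talin and actin when the link is under tension, paxillin is a scaffold for kinases, and zyxin collects on stretched actin bundles. Alpha-actinins crosslink actin into bundles, and filamins crosslink it into networks and also bind integrin tails. Undifferentiated ES cells grow as compact colonies, and flattened, spread cells are known for larger adhesions and thicker actin bundles.

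The values are log2 RMA signals, in which background is corrected, arrays are brought to a common distribution and the probes of a probe set are summarized. Changes are overexpression minus control on that log2 scale with the standard error of limma, and a gene is said to have risen or fallen where its Benjamini-Hochberg p, adjusted across the 19938 genes, was under 0.05. Over all genes, 1405 rose and 647 fell (68.5% of calls were rises, and 80.4% with each array centred on its median), and the median change was 0.0. The probe set of Prmt6 read 7.32, 7.40 and 7.33 in the overexpression arrays, against 6.84, 6.58 and 7.12 in the control arrays. The change of 0.50 ± 0.13 passed (adjusted p = 0.0406), but not when control replicate 1 (0.116), control replicate 2 (0.0954), or overexpression replicate 1 (0.0893), 2 (0.119) or 3 (0.0788) was left out. Of the ES cell markers, 0 of 12 rose and Tdgf1, Nanog and Sox2 fell (-0.35, -0.34 and -0.29), 1 of which passed without overexpression replicate 2 and 0 without control replicate 1, 2 or 3. Pou5f1, the gene of Oct4, was at 0.19 ± 0.079 and did not pass.

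With the Prmt6 plasmid, 7 of the 9 linker and filamin genes rose and 0 fell, where 7.05% of all genes rose and 3.25% fell. Because the genes were chosen with earlier results known, this contrast is a description and not a test. Flnc, the filamin best known from muscle, rose 4.32-fold, and Actn1, a non-muscle alpha-actinin, rose 2.80-fold. Vcl and Zyx rose 1.95-fold and 1.92-fold, while Flna (1.43-fold), Tln1 (1.34-fold) and Pxn (1.30-fold) rose by less. Actn4 and Tln2 did not pass. In 8 of the 9 genes all overexpression arrays lay above all control arrays, as they did in 17.0% of all genes, and the median change of the 9 was 0.52.

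**Figure D1:**
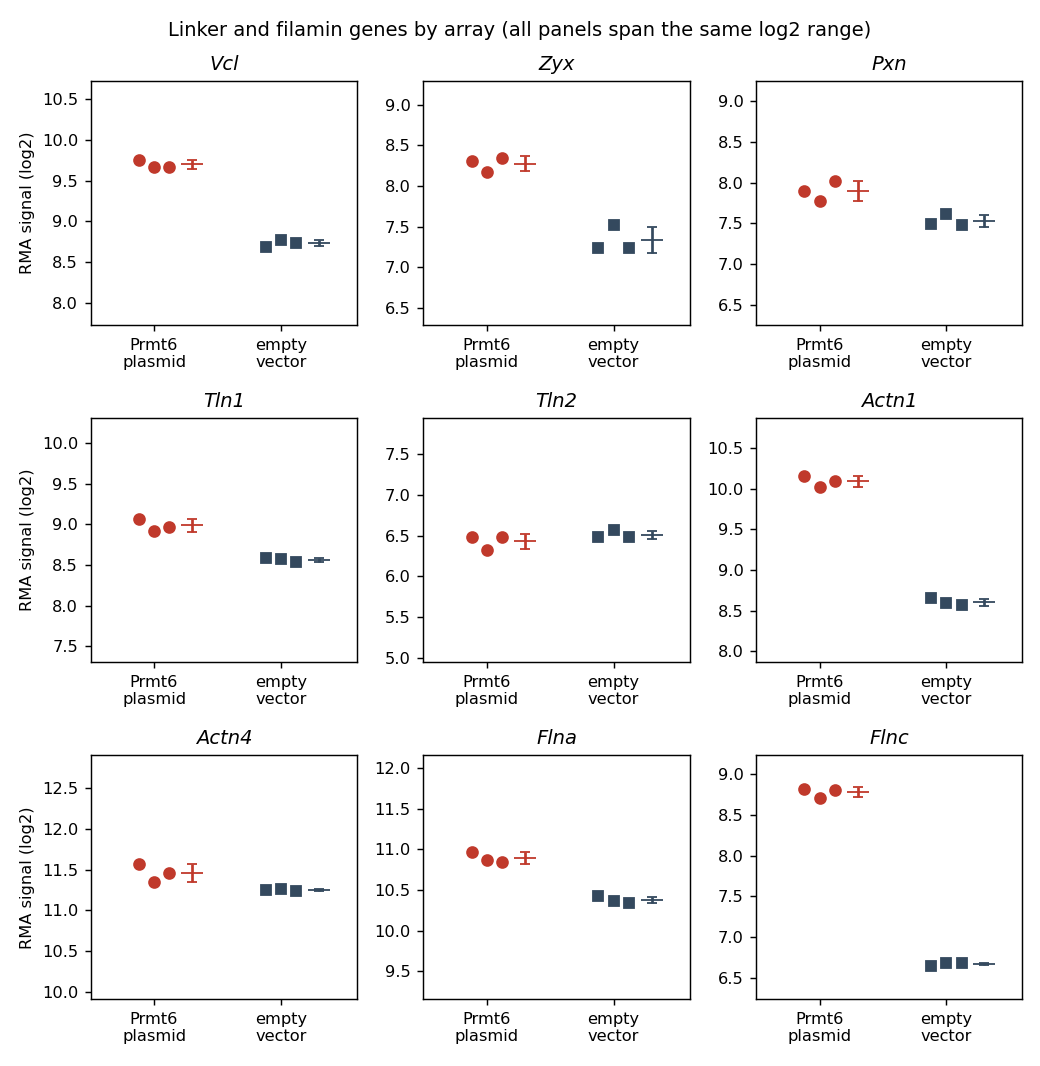
RMA signal on the log2 scale (vertical axes, all of equal span) of the 9 linker and filamin genes in the 3 Prmt6-plasmid arrays (red circles, left) and the 3 empty-vector arrays (dark squares, right), with the mean and SD beside each group. Flnc and Actn1 have the widest gaps between the groups, 2.03 and 1.37, and Tln2 is the gene whose groups overlap.

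Talins were the members closest to the integrin. Tln1, the talin of most tissues, had log2 signals of 9.07, 8.92 and 8.97 in the overexpression arrays, against 8.59, 8.57 and 8.54 in the control arrays. Every overexpression array was above every control array, and the change was 0.42 ± 0.072 (adjusted p = 0.00757, limma). Tln2, the second talin, known from heart and brain, read 6.48, 6.32 and 6.49 in the overexpression arrays, against 6.49, 6.57 and 6.48 in the control arrays. Its groups overlapped, and its change of -0.083 ± 0.077 did not pass (adjusted p = 0.574), with a 95% interval from -0.26 to 0.094.

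Vinculin, which reinforces the talin-actin link, showed little spread beside its change. Vcl read 9.76, 9.67 and 9.67 in the overexpression arrays, against 8.69, 8.77 and 8.74 in the control arrays. The groups were 0.90 apart at their nearest arrays, and the change was 0.97 ± 0.07 (adjusted p = 6.70e-05).

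The scaffold genes Pxn and Zyx both rose, by different amounts. Pxn, the gene of paxillin, read 7.90, 7.78 and 8.02 in the overexpression arrays, against 7.49, 7.61 and 7.48 in the control arrays. The nearest arrays were 0.17 apart, and the change of 0.37 ± 0.085 passed (adjusted p = 0.0280). Of the 7 rises it was the one whose call ended when an array was left out: adjusted p was 0.107 without control replicate 3, 0.106 without control replicate 1, 0.0516 without control replicate 2, 0.0664 without overexpression replicate 3 and 0.0607 without overexpression replicate 1. Zyx read 8.31, 8.17 and 8.34 in the overexpression arrays, against 7.24, 7.52 and 7.24 in the control arrays. Control replicate 2 was its highest control array, the groups did not overlap, and the change was 0.94 ± 0.098 (adjusted p = 0.000553).

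The alpha-actinins Actn1 and Actn4, the non-muscle crosslinkers of stress fibres and cortex, diverged. Actn1 read 10.16, 10.02 and 10.09 in the overexpression arrays, against 8.65, 8.59 and 8.57 in the control arrays. Its change was 1.49 ± 0.072 (adjusted p = 7.14e-06), and 82 genes rose by more. Actn4 read 11.57, 11.35 and 11.46 in the overexpression arrays, against 11.25, 11.26 and 11.24 in the control arrays. Its control arrays were within 0.02 of each other and all lay below the overexpression arrays, but its change of 0.21 ± 0.078 did not pass (adjusted p = 0.137, and 0.0173 with a trended and robust variance prior). Its unadjusted 95% interval ran from 0.031 to 0.39.

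The filamins Flna and Flnc, which crosslink actin into networks, both rose. Flna, the widely expressed filamin, read 10.97, 10.87 and 10.84 in the overexpression arrays, against 10.42, 10.37 and 10.34 in the control arrays. The groups did not overlap, and the change was 0.52 ± 0.072 (adjusted p = 0.00261). Flnc read 8.82, 8.71 and 8.81 in the overexpression arrays, against 6.65, 6.68 and 6.68 in the control arrays. Its change of 2.11 ± 0.069 was the largest of the 9 (adjusted p = 1.14e-06), and 24 genes rose by more.

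By size of change Flnc, Actn1, and Vcl with Zyx fell into steps above the other genes, which ran into each other. The 95% interval of Flnc, from 1.95 to 2.27, lay above that of Actn1, from 1.32 to 1.65, which lay above those of Vcl, from 0.81 to 1.13, and Zyx, from 0.72 to 1.16. The intervals of Vcl and Zyx overlapped each other, and so did those of Flna (0.35 to 0.68), Tln1 (0.26 to 0.58) and Pxn (0.18 to 0.57), which all lay below that of Zyx. The interval of Actn4 (0.031 to 0.39) overlapped those of Flna, Tln1 and Pxn and also that of Tln2 (-0.26 to 0.094). No step therefore separates the smaller rises from the genes that did not pass. Within the overexpression group, replicate 2 had the lowest value in 8 of the 9 genes, in Vcl tied with replicate 3. The share over all genes is not given here, so this is not read as particular to these genes. The array medians over all probe sets were 5.54, 5.55 and 5.59 for replicates 1, 2 and 3. The range was wider in overexpression than in control for 8 of the 9 genes, and their median SD was 0.0764 in overexpression and 0.0404 in control (n = 3 each). Over all genes the median SD was higher, and it too was larger in overexpression (0.115) than in control (0.0819).

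The relatives of these genes, which share their domain layout, did not move as a block. Of 13 measured paralogs, 2 rose, 1 fell and 10 did not pass, with a median change of 0.12. Lpp, a zyxin relative at focal adhesions and cell contacts, read 9.37, 9.24 and 8.97 in the overexpression arrays, against 7.19, 7.20 and 7.23 in the control arrays, a rise of 1.99 ± 0.10 (adjusted p = 9.90e-06). Tgfb1i1, the paxillin relative of smooth muscle and stromal cells, read 6.84, 7.08 and 7.14 in the overexpression arrays, against 5.79, 5.69 and 5.86 in the control arrays, a rise of 1.24 ± 0.097 (adjusted p = 0.000100). The fall was that of Ctnnal1, a relative of vinculin and the alpha-catenins, at -0.37 ± 0.072 (adjusted p = 0.0133). Adjusted p was 0.0590, 0.0516 and 0.0579 when control replicate 1, 2 or 3 was left out and 0.0545 when overexpression replicate 2 was, so the call ended in these 4 cases.

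The other zyxin relatives, Trip6 (0.25), Ajuba (-0.09), Limd1 (0.27) and Wtip (0.12), did not pass, and neither did the leukocyte paxillin relative Lpxn (-0.11). The muscle alpha-actinins of the sarcomere Z-disc, Actn2 (-0.37 ± 0.12) and Actn3 (0.22 ± 0.078), did not pass. Actn2 was at -0.22 without overexpression replicate 2. Among the alpha-catenins, which link cadherins to actin at cell-cell contacts and are related to vinculin, Ctnna1 was at 0.29 ± 0.078 (adjusted p = 0.0510), Ctnna2 at -0.14 and Ctnna3 at 0.077. Ctnna1 passed with dim genes left out (0.0214), with arrays centred on medians (0.0307), with a trended and robust prior (0.00294) and with array weights (0.0494). Lpxn, Ctnna2 and Ctnna3 averaged 5.11, 4.69 and 3.94 in overexpression arrays and 5.22, 4.83 and 3.86 in control arrays. These lie below the array medians, which ran from 5.54 to 5.62, so the 10 that did not pass include genes whose signal may be mostly background. Ajuba, at 10.08 and 10.17, was bright and did not pass either.

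**Figure D2:**
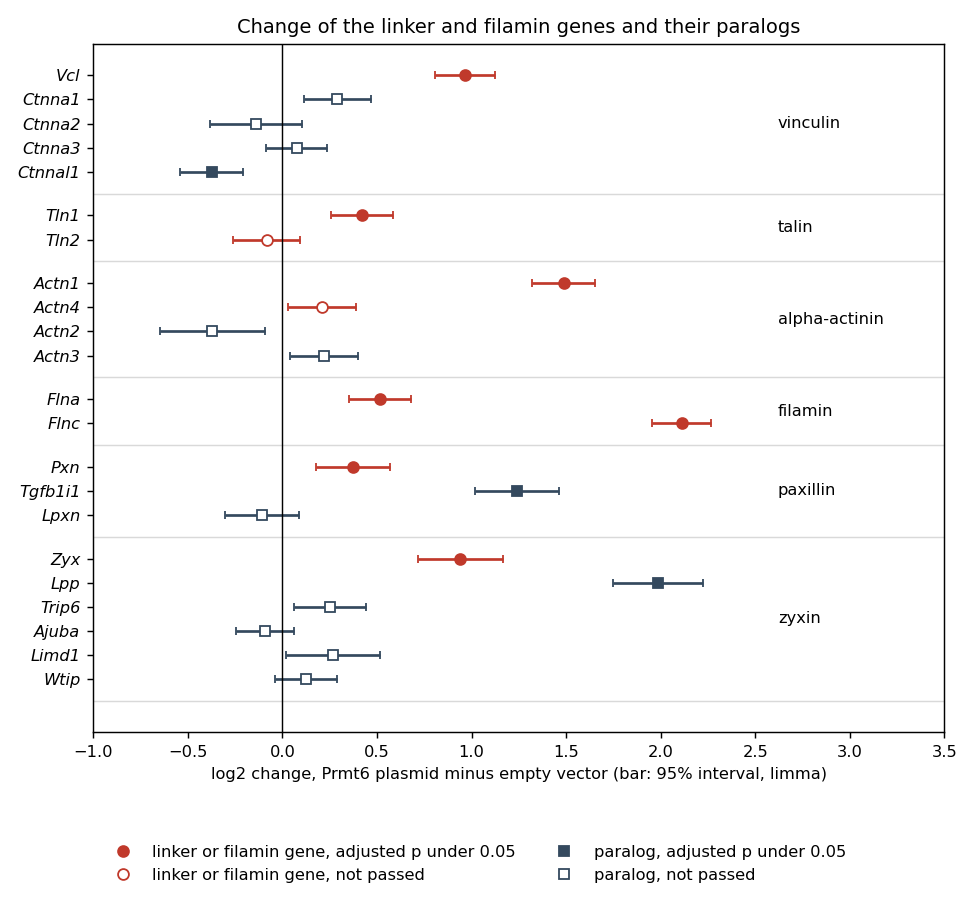
Change on the log2 scale, Prmt6 plasmid minus empty vector, with its 95% interval from limma (horizontal axis), of the 9 linker and filamin genes (red circles) and 13 paralogs (dark squares), grouped by family. Filled symbols passed at an adjusted p under 0.05, and the highest values are those of Flnc at 2.11, Lpp at 1.99 and Actn1 at 1.49. Each gene is drawn by its highest-mean probe set, and Lpp was at 1.38 with the mean of its probe sets.

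Whether related genes changed by different amounts was asked with the within-array difference of their log2 signals, taken relative to its mean over the control arrays. For pairs, ± is the standard error from the spread of these differences within each group of 3 arrays. It is not the error of limma and is not to be compared with the errors of single genes. With 3 arrays against 3 the exact two-sided permutation test over samples cannot give a p under 0.10, and all 6 pairs stood at that smallest value (0.10 adjusted over the 6 pairs). Tln1 minus Tln2 was 0.54, 0.55 and 0.43 in the overexpression arrays, against 0.047, -0.053 and 0.0067 in the control arrays, a difference in change of 0.50 ± 0.048. Actn1 minus Actn4 was 1.24, 1.32 and 1.28 in the overexpression arrays, against 0.047, -0.023 and -0.023 in the control arrays, a difference of 1.28 ± 0.033. Flna minus Flnc was -1.56, -1.55 and -1.68 in the overexpression arrays, against 0.063, -0.017 and -0.047 in the control arrays, a difference of -1.59 ± 0.053. In each of these 3 pairs the groups were separate, and the gap exceeded the spread within either group.

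The other 3 pairs set a linker gene against 1 of its relatives, which for Zyx and Pxn was a paralog that rose. Zyx changed by less than Lpp (-1.05 ± 0.17) and Pxn by less than Tgfb1i1 (-0.87 ± 0.14), and Vcl changed by more than Ctnna1 (0.68 ± 0.043). The overexpression arrays lay on 1 side of the control arrays in each of these 3 pairs. With the mean of the probe sets Zyx was at 0.94 and Lpp at 1.38, so the difference between them was smaller there.

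**Figure D3:**
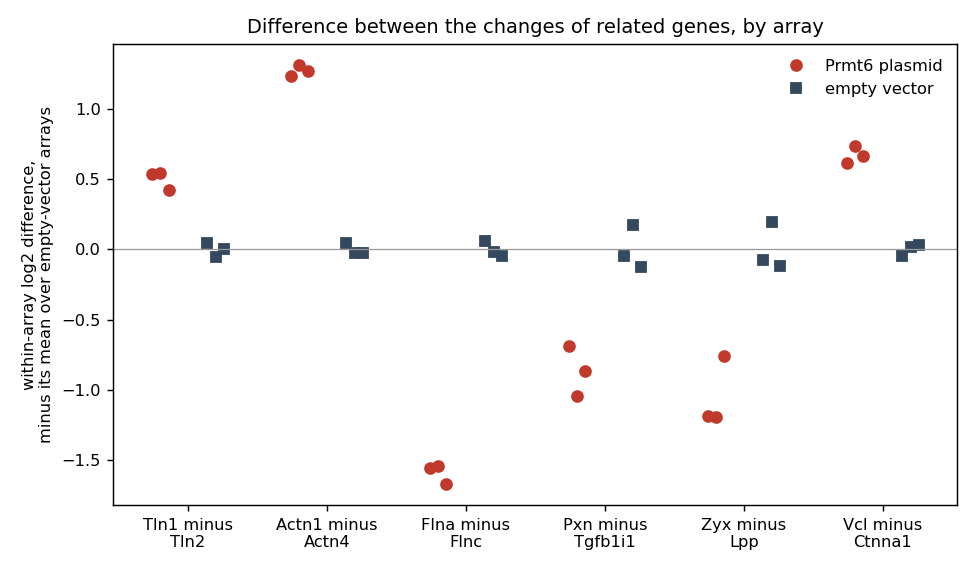
Within-array difference between the log2 signals of 2 related genes, minus its mean over the empty-vector arrays (vertical axis), for 6 pairs, with the 3 Prmt6-plasmid arrays as red circles and the 3 empty-vector arrays as dark squares. The groups are separate in all 6 pairs, with mean differences from -1.59 for Flna minus Flnc to 1.28 for Actn1 minus Actn4.

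Promoter windows of the members are shown because 7 of the 9 genes moved together, and shared elements near their starts can be looked for in them. RefSeq windows (GRCm38.p6) from 250 bases before to 50 after a start were matched by symbol for 7 genes (8 windows, 2 of them of Flnc), and not for Pxn and Tln2. Both strands were searched for the CArG box, the element bound by serum response factor, for CATTCC, the core bound by TEAD factors, and for TGANTCA, an AP-1 element. The 5 windows printed here run 5′ to 3′ on the strand of the gene, with matches in capitals. Vcl holds the CArG box and, nearer the start, CATTCC on the opposite strand, Flna and Flnc hold CATTCC, and Actn4, which did not pass, holds CATTCC and TGANTCA. Actn1, which rose more than Vcl, is shown as a window with no match.
Vcl, chr14:20929148-20929447, plus strand: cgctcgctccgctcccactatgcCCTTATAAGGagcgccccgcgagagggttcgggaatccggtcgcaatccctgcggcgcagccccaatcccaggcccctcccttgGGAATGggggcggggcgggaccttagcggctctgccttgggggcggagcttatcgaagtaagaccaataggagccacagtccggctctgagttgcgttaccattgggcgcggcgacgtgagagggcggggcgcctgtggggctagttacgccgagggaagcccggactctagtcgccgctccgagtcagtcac
Flnc, chr6:29432903-29433202, plus strand: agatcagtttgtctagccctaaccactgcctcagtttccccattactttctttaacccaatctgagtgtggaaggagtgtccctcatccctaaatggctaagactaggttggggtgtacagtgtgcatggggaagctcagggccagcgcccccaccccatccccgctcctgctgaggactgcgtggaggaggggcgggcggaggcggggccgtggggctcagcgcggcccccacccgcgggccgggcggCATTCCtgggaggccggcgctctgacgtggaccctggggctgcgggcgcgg
Flna, chrX:74246485-74246784, minus strand: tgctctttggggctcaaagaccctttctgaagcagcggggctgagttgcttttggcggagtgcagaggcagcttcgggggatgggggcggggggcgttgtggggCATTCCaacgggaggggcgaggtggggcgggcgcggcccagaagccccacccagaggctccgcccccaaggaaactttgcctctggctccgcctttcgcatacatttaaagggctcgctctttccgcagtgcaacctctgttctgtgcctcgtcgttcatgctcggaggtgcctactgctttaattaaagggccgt
Actn4, chr7:28962283-28962582, minus strand: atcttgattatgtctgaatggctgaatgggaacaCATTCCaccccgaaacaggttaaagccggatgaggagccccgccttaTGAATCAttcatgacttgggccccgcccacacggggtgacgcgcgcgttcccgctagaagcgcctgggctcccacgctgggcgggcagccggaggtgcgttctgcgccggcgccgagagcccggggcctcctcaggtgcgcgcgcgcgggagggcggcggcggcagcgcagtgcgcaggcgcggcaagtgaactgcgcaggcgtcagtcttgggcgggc
Actn1, chr12:80260314-80260613, minus strand: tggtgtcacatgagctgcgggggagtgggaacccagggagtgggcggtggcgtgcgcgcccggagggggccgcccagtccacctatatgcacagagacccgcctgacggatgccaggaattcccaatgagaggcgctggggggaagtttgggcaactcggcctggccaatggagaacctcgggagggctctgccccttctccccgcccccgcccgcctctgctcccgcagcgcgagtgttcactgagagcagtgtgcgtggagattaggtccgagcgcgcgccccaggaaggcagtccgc

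The CArG box of Vcl, CCTTATAAGG, begins 227 bases upstream of the start and was the only one in the 8 windows of the members, where 1.63% of all 32851 windows hold one. CATTCC was present in Vcl, Actn4, Flna and Flnc, which is 4 of 7 genes, and in 16.6% of the 27025 genes with a window. It begins 143 bases upstream of the start in Vcl, 146 in Flna and 216 in Actn4. In Flnc it spans the start shown and lies 104 bases upstream of a second listed start. The Flna window, which ends at 74246784, lies inside the annotated gene, whose upstream end on the minus strand is at 74249854. Its start is therefore not the outermost one of Flna. The Zyx window, from 42349578, likewise begins inside its gene, annotated from 42349511. TGANTCA was present in Zyx, 121 bases upstream, and in Actn4, 169 bases upstream, and in 8.97% of genes. The matches did not overlap each other. A match is a description of letters in a window, and Tln1 and Actn1 held none of the 3 elements.

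Of the genes of factors that read the CArG box or CATTCC and of their coactivators, 3 of 10 rose, 0 fell and 7 did not pass. That list holds no gene of an AP-1 factor, so it does not cover TGANTCA. Srf, the gene of serum response factor, was at 0.11 ± 0.085, its coactivators Mrtfa and Mrtfb at 0.017 and -0.14, and the muscle coactivator Myocd at 0.057, none of them passing. Wwtr1, the gene of the Hippo effector TAZ, rose by 0.60 ± 0.077 (adjusted p = 0.00180) and its relative Yap1 was at -0.033 without passing (0.013 with arrays centred on medians). Of the TEAD genes, Tead4 rose by 0.67 ± 0.091 and Tead2 by 0.51 ± 0.071, while Tead3 (0.29) and Tead1 (0.090) did not pass. The value for Mrtfb was 0.0033 with the mean of its probe sets.

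Upstream of the linkers, 8 of 26 integrin subunits rose and 0 fell, with a median change of 0.15. Over all genes 7.05% rose and 3.25% fell, and these shares also stand beside the lists that follow. Some of the 18 that did not pass were dim, such as Itgb6 (3.42 in overexpression, 3.38 in control) and Itga2 (4.18 and 4.46). Others, such as Itgb4 (6.49 and 6.41), lay above the array medians of 5.54 to 5.62. The count and median mix both kinds. Itga3, an alpha subunit of laminin receptors, rose by 1.45 ± 0.082, Itgav by 1.07 ± 0.067, and Itgb1, the shared beta subunit, by 0.83 ± 0.087. Itgb5, a partner of Itgav in vitronectin receptors, rose by 0.68 ± 0.079. Adjusted p for these 4 lay between 1.56e-05 and 0.00100.

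Of the adaptors and kinases that sit beside talin and paxillin, 10 of 34 rose, 2 fell and 22 did not pass, with a median change of 0.14. Parva, an actin-binding parvin, rose by 1.82 ± 0.098, its complex partner Ilk by 1.14 ± 0.072, and Fermt2, a kindlin that binds integrin tails along with talin, by 0.69 ± 0.086. Tns4, a tensin, rose by 1.34 ± 0.12. The falls were those of Enah, which lengthens actin filaments and binds zyxin and vinculin (-0.43 ± 0.066), and of Dock1, an activator of Rac (-0.32 ± 0.074), both named after their values were seen. The number of falls was 1 without any 1 array other than overexpression replicate 1. Ptk2, the gene of focal adhesion kinase, was not analysed here.

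Among actomyosin genes, 7 of 20 rose, 0 fell and 13 did not pass, with a median change of 0.17. Rhoc and Rhob, small GTPases that control actin, rose by 1.87 ± 0.095 and 1.05 ± 0.10. The non-muscle myosin heavy chain Myh9 rose by 0.71 ± 0.073 and the regulatory light chain Myl12a by 0.65 ± 0.069. With the mean of its probe sets Myh9 was at 0.43 (adjusted p = 0.0129). Of the partners and turnover factors of filamin and talin, 8 of 16 rose and 0 fell, with a median change of 0.28. Capn2 and Capns1, subunits of the calpain that cleaves talin, rose by 2.00 ± 0.077 and 0.81 ± 0.07. Hspb8, a small heat shock protein that works with Bag3 in the disposal of damaged filamin, rose by 1.14 ± 0.076, and the LIM protein gene Fhl2 by 1.83 ± 0.084.

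**Figure D4:**
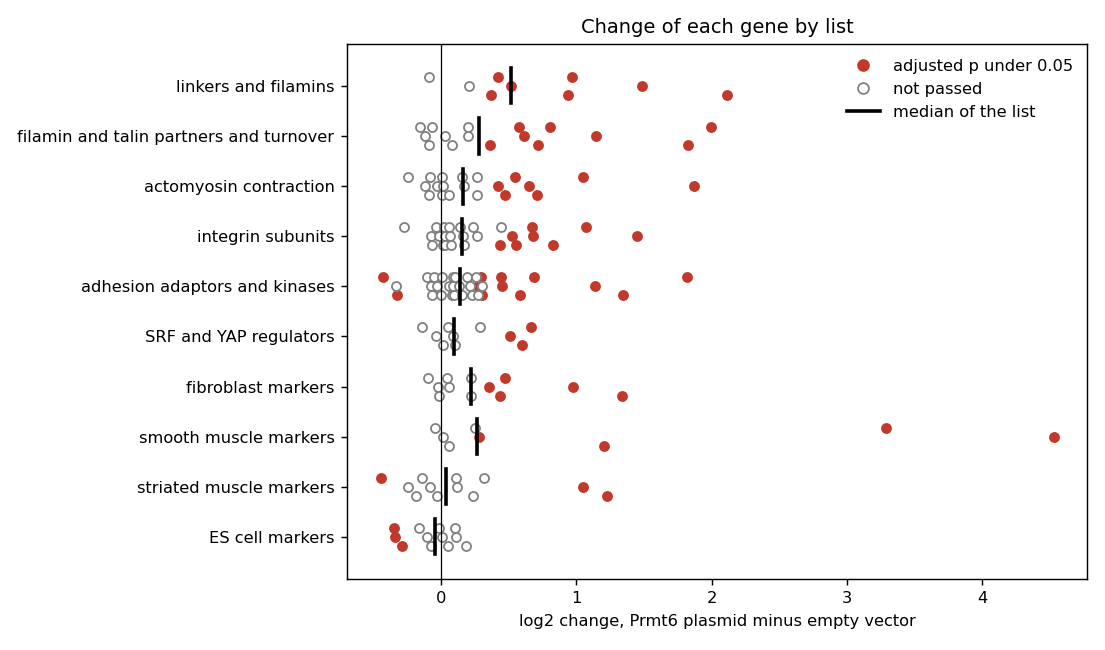
Change on the log2 scale, Prmt6 plasmid minus empty vector (horizontal axis), of each measured gene, by list (rows), with genes past an adjusted p of 0.05 in red and the median of each list as a bar. The linker and filamin row has 7 of 9 genes past the threshold and a median of 0.52, and the ES cell marker row has a median of -0.040.

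Markers of other cells moved in the same arrays. Of 12 fibroblast markers, 5 rose and 0 fell (3 rose without overexpression replicate 3 or control replicate 3, and 2 without control replicate 1), led by Col1a1 (1.34), Col1a2 (0.98), Pdgfrb (0.47) and Dcn (0.44). The other 7, Thy1 (0.043), Postn (0.22), Lum (0.063), Fap (-0.023), Twist1 (0.22), Prrx1 (-0.097) and S100a4 (-0.017), did not pass. The summed linear signal of the 12 ranged from 710.7 to 772.0 in overexpression arrays and from 467.3 to 504.5 in control arrays. Col1a1 and Col1a2 were the brightest fibroblast markers in overexpression arrays (means of 7.79 and 7.14), so that sum is weighted toward them. Of 8 smooth muscle markers, 4 rose (3 without any 1 array, the call of Smtn, at 0.28, having ended), and the summed signal ranged from 4961 to 5388 in overexpression arrays and from 688.1 to 722.9 in control arrays. Acta2 (4.53), Tagln (3.29) and Cnn1 (1.21) led that list, whereas Myh11 (0.013), Des (-0.040) and Lmod1 (0.060), other defining genes of smooth muscle, did not pass. A sum of linear signals is weighted toward bright genes. Acta2 and Tagln averaged 11.15 and 11.21 on the log2 scale in overexpression arrays, and the next marker, Smtn, 7.38. The sum therefore mostly follows Acta2 and Tagln and does not describe the whole list. Of 12 striated muscle markers, which bear on Flnc, 2 rose and 1 fell, and the summed signal ranged from 840.8 to 894.4 in overexpression arrays and from 610.9 to 640.4 in control arrays. The rises were those of the sarcomeric actins Actc1 (1.23) and Acta1 (1.05), the fall was that of Ttn (-0.44), and the myogenic factors Myod1 (-0.027) and Myog (-0.24) did not pass. Actc1 and Acta1 were also the brightest striated markers in overexpression arrays (7.78 and 7.83), so that sum is weighted toward them. RMA gives no signal of 0, so no marker of any list was at 0. Their part in the linker and filamin changes was not tested, and in bulk RNA more cells of a type and more RNA per cell cannot be told apart.

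The genes outside these lists whose values over the 6 arrays were most like the mean of the 9 linker and filamin genes were Bin1, a membrane-bending protein (Pearson r = 0.999, change 1.00), Sri, a calcium-binding protein (0.999, change 0.61), Arf4, a small GTPase of membrane traffic (0.999, change 0.44), Fhl1, a LIM protein (0.999, change 0.81), and Ralb, a small GTPase (0.998, change 0.87). These correlations describe arrays that fall into 2 groups, and a gene with a rise that is large beside its spread scores high on this measure.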

How the data were processed

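The deposited values are log2 signals per probe set, normalized by the authors with RMA, per the submitters' processing notes. The version, software and background settings of RMA are not given in sources used here. There were 35556 probe sets, 0 missing values and array medians from 5.54 to 5.59 in overexpression and from 5.60 to 5.62 in control. RMA brings arrays to a common distribution and so largely removes a shift common to most genes. Detection calls were not used, and precision is limited by the number of arrays.

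Probe sets were named through the 2016 platform annotation, where 21789 probe sets had 1 symbol, 1621 several and 12146 none, and 21698 of the first matched GRCm38.p6 by gene identifier. Where a gene had several single-symbol probe sets, the one with the highest mean stood for it. The groups were compared two-sided by lmFit and eBayes of limma 3.58.1 (R 4.3.3), with no covariate and no filter, and p-values were adjusted over 19938 genes. Pairs of related genes were compared by exact permutation in scipy 1.17.1, and figures were drawn with matplotlib 3.10.9. The fit was tested on simulated data.

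The genes named are the 9 linkers and filamins, all measured paralogs and SRF and YAP regulators, up to 4 passing genes of each other list with the largest change, and the 5 genes most alike, with 0 predicted genes skipped. Other genes named beside them were chosen after their values were seen. The members and lists were chosen with earlier results of these data known, and the 3 promoter motifs after their values were seen. Lists are described by counts and medians and have no test of their own. As alternatives, the fit was repeated with the replicate number as a block, without each array, without genes whose mean was below the 30th percentile, after median centring or quantile normalization, with probe sets averaged per gene or taken singly, with a trended and robust prior, and with array weights.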

Additional observations from a re-analysis of the deposited data

How the results depend on the processing

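The count of linker and filamin genes that rose was 7, stood between 6 and 7 without any 1 array, was 6 with the replicate block and 8 with a trended and robust prior, and 0 fell under any alternative run. In 126 alternatives of single members, 119 kept direction and side of the threshold, 6 lost the call, all of Pxn, 1 gained it, that of Actn4, and 0 reversed. Part of the 126 could not reverse. Each member has 1 probe set, so averaging probe sets or taking them singly reused the same values. The replicate block, the 30th percentile filter and the trended and robust prior could alter adjusted p but not the change itself. Without 1 array the changes of Flnc stayed between 2.09 and 2.15, of Actn1 between 1.45 and 1.52, of Vcl between 0.94 and 0.98 and of Zyx between 0.89 and 1.03. Over all genes, rises numbered from 862 to 1232 without 1 array, the lowest without control replicate 1 (862) and 3 (898). Falls numbered from 280 to 763 without 1 array, with 280, 321 and 297 without control replicates 1, 2 and 3 and 328 without overexpression replicate 2. Falls were 383 with the replicate block, 990 when genes below the 30th percentile were dropped, 1115 with a trended and robust prior and 1098 with array weights. Centring on medians gave 1838 rises and 447 falls.

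Same-numbered arrays shared only a number: their deviations from the group means correlated at -0.019, -0.016 and -0.12. With the replicate block Pxn had adjusted p = 0.0780 at an unchanged 0.37, and no other call among the 9 genes changed. The block also ended the calls of Prmt6 (0.0615), Nanog (0.0615), Sox2 (0.116), Tdgf1 (0.0666), Dcn (0.0849) and Smtn (0.104), and of no other gene named by rule. Directions reversed for Yap1, which ranged from -0.0583 to 0.0067 without 1 array (0.0067 without overexpression replicate 3) and was at 0.013 with centred arrays, and for Mrtfb with the mean of its probe sets (0.0033), none of which passed. Differences within the 6 pairs kept their direction in all 54 alternatives, from 0.48 to 0.54 for Tln1 minus Tln2, from 1.26 to 1.30 for Actn1 minus Actn4 and from -1.62 to -1.55 for Flna minus Flnc without 1 array. Part of the 54 could not differ from the main value. Centring an array cancels within every pair, and averaging probe sets changes nothing in these 3 pairs, whose genes have 1 probe set each. Of 260 alternatives of list counts, 231 were within 1.5 times. Trip6, Actn2 and Tead3 passed with dim genes left out (adjusted p = 0.0477, 0.0484 and 0.0400) and with a trended and robust prior (0.0298, 0.0455 and 0.0466). Actn2 also passed with array weights (0.0208), and Tead3 with centred arrays (0.0458) and quantile normalization (0.0486). Actn2 ranged from -0.47 to -0.22 without 1 array. That filter removed 4 named genes, which have no value there.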

Other observations

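The genes that lie beside the linker and filamin genes on the chromosome were read as a description, chosen by position after the data had been seen. Of 18 nearest measured protein-coding neighbours, 1 on each side of each gene, 8 rose, 1 fell and 9 did not pass, where 7.05% of all genes rose. The neighbours of the talins include the tropomyosin genes Tpm2 and Tpm1: Tpm2, beside Tln1, rose by 1.69 ± 0.085, and Tpm1, beside Tln2, rose by 1.76 ± 0.07, while Tln2 itself was at -0.083 without passing. Creb3, on the other side of Tln1, rose by 0.79 ± 0.073. Plau, a plasminogen activator gene beside Vcl, rose by 0.53 ± 0.10, and Ap3m1 on its other side was at 0.023 without passing. Beside Flnc, Atp6v1f rose by 0.44 ± 0.071 and Ccdc136 fell by 0.35 on the log2 scale, against 2.11 for Flnc. Beside Flna, Emd, which encodes the nuclear envelope protein emerin, rose by 0.31 ± 0.071. Neighbours of Actn1 and Actn4 that rose were Zfp36l1 (0.38 ± 0.093) and Eif3k (0.39 ± 0.084), and no neighbour of Zyx or Pxn passed.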
